A study of Homo sapiens with 14 samples.

Results

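Genes that restrain cyclic AMP and G protein signalling were followed in LY2 breast cancer cells, in which the coactivator SRC-1 had been knocked down and 4-hydroxytamoxifen had been added for 2 hours. The 10 genes were PDE4A, PDE4B, PDE4C, PDE4D, PKIA, PKIG, PRKAR2B, CREM, RGS2 and RGS16, taken with every probe set that the annotation of the HG-U133 Plus 2.0 array gives them. This came to 32 probe sets of 54613, array controls left out. Of the 32, 28 carried 1 gene symbol, and they covered 9 genes. The other 4 were annotated to PDE4C together with CIST1, so no value of PDE4C alone can be given. The genes were chosen by measured values as well as by role: PDE4B was low with tamoxifen, RGS2 was high and PKIA was low with SRC1 siRNA. Those 3 patterns are described below without a p-value, and where a count of passing probe sets includes them, this is said.

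LY2 is an MCF-7 derivative that resists anti-estrogens, whereas its parent needs estrogen to grow. The study silenced SRC-1, the product of NCOA1, a coactivator of nuclear receptors, and asked how transcription changed with and without 4-hydroxytamoxifen, the active metabolite of tamoxifen. All cells had been propagated with 10 nM 4-hydroxytamoxifen and deprived of it for 72 hours. They then received 40 nM siRNA, and 24 hours later 100 nM 4-hydroxytamoxifen or ethanol as vehicle. The 4 groups were SRC1 siRNA with tamoxifen (2 arrays, replicates 1 and 3), SRC1 siRNA untreated (4 arrays), control scrambled siRNA with tamoxifen (4 arrays) and control siRNA untreated (4 arrays). The labels call the replicates biological, name 1 cell line and give no further detail on separate cultures, so p-values measure the spread between these arrays. In cells measured in bulk, fewer cells with a transcript and less of it per cell cannot be told apart.

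Cyclic AMP is made by adenylyl cyclases under the control of stimulatory and inhibitory G proteins, and it activates protein kinase A by releasing its catalytic subunits from regulatory subunits. Protein kinase A phosphorylates CREB, which induces genes that carry a cyclic AMP response element. The genes described here restrain this route or the G protein signals that feed it. RGS proteins speed up the inactivation of G protein alpha subunits, inhibitory ones included, so they need not lower cyclic AMP. PDE4 enzymes hydrolyse cyclic AMP, PKI peptides and regulatory subunits hold protein kinase A inactive, and short products of CREM repress CREB targets.

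Several of these genes are known as cyclic AMP targets themselves, so their promoter windows are shown with the letters of the response element in capitals. RefSeq windows of 300 bases (GRCh38.p14), most of each lying before an annotated start, were searched on both strands for TGACGTCA, which is its own reverse complement, and for the shorter TGACG or CGTCA, which lie within it. The search covered 35 windows of 9 of the genes, PKIA being left out. TGACGTCA was present in 3 of the 35 windows, a pair of overlapping ones of CREM and 1 of PDE4A, and in 649 of 35116 windows of all genes (1.85%). The shorter form was present in 7 of the 35 windows, and in 8622 of all 35116 (24.6%). None of the 6 PDE4B windows held either. The CREM window lies at chr10:35195652-35195951 on the plus strand, with the first base of TGACGTCA 50 bases before the start. The PDE4A window lies at chr19:10416523-10416822 on the plus strand, with TGACGTCA beginning 3 bases before the start and 7 matches to the shorter form, a pair of them inside TGACGTCA. The RGS2 window lies at chr1:192808789-192809088 on the plus strand, with 1 match to the shorter form 181 bases before the start. Probe sets were not assigned to these starts.
CREM: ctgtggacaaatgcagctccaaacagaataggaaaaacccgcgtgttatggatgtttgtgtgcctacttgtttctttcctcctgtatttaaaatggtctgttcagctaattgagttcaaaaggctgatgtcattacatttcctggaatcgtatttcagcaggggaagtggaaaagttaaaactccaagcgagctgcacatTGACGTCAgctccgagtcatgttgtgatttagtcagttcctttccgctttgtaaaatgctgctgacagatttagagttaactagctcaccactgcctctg
PDE4A: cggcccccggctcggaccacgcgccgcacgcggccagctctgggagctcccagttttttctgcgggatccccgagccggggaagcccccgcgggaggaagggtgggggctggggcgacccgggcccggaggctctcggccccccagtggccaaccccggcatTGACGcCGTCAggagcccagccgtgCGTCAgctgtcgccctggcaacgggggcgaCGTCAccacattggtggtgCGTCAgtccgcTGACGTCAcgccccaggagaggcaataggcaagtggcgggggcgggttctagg
RGS2: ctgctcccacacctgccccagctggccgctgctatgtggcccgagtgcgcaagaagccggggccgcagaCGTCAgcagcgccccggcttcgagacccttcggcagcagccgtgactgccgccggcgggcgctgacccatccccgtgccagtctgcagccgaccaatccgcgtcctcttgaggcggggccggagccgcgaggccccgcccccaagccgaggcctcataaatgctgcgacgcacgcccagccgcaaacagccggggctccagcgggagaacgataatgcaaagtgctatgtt

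Signals are the deposited log2 values, and a change is a difference of group means on that scale with its standard error (SE). Array medians lay between 3.44 and 3.51, and the number of arrays limits the precision. The mean of the 4 NCOA1 probe sets checked the knockdown. Without tamoxifen it was 7.70 ± 0.36 after SRC1 siRNA and 9.00 ± 0.25 after control siRNA (SD, n = 4 each), which is 59.4% lower (p = 0.0286 by exact permutation, two-sided). With tamoxifen it was 7.74 ± 0.25 after SRC1 siRNA (SD, n = 2) and 9.06 ± 0.18 after control siRNA (SD, n = 4), which is 60.0% lower (p = 0.133 by exact permutation, two-sided, the lowest value that 15 regroupings can give). All 9 luminal breast markers lay above the median signal of all probe sets (3.47), against 1 of 8 fibroblast markers (COL1A1), 1 of 7 immune markers (LYZ) and 0 of 6 endothelial markers. The mean of the immune list ran from 2.39 to 2.64 in SRC1-siRNA tamoxifen arrays, 2.38 to 2.50 in SRC1-siRNA untreated arrays, 2.26 to 2.35 in control-siRNA tamoxifen arrays and 2.35 to 2.40 in control-siRNA untreated arrays. The mean of the endothelial list ran from 2.36 to 2.44 in SRC1-siRNA tamoxifen arrays, 2.58 to 2.69 in SRC1-siRNA untreated arrays, 2.47 to 2.51 in control-siRNA tamoxifen arrays and 2.45 to 2.53 in control-siRNA untreated arrays. With the knockdown 1 of 7 immune markers rose and 1 of 6 endothelial markers fell in tamoxifen-treated cells, 1 of 6 endothelial markers rose in untreated cells, and with tamoxifen 1 of 6 fell in SRC1-siRNA cells. Of the 9 luminal markers 1 rose and 1 fell with the knockdown in untreated cells. The part of these lists in the results was not tested. Adjusted p-values are from limma over all 54613 probe sets, with a threshold of 0.05. Means of the replicate numbers lay closer together than independent arrays would give, so the fit was repeated with that number in the model (a replicate block), and its p is given beside each call on a named gene that it ended.

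Among the genes studied, RGS2, a G protein inactivator that acts on Gq and also inhibits adenylyl cyclase, was far higher with SRC1 siRNA. Its 1 probe set, 202388_at, was at 9.69 and 9.06 in the SRC1-siRNA tamoxifen arrays and at 9.75, 9.30, 9.04 and 7.26 in the SRC1-siRNA untreated arrays. It was at 4.57, 4.90, 5.31 and 5.69 in the control-siRNA tamoxifen arrays and at 5.41, 5.66, 5.65 and 6.31 in the control-siRNA untreated arrays. No array with SRC1 siRNA overlapped one with control siRNA, and SRC1-siRNA untreated replicate 4 lay well below the other arrays of its siRNA. The knockdown change was 4.26 ± 0.53 with tamoxifen (19.1-fold) and 3.08 ± 0.43 untreated (8.46-fold). By replicate number it was 5.12 and 3.74 with tamoxifen, in replicates 1 and 3. Untreated it was 4.34, 3.64, 3.39 and 0.94, in replicates 1 to 4, and without the replicate 4 arrays of all groups it was 3.79.

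**Figure D1:**
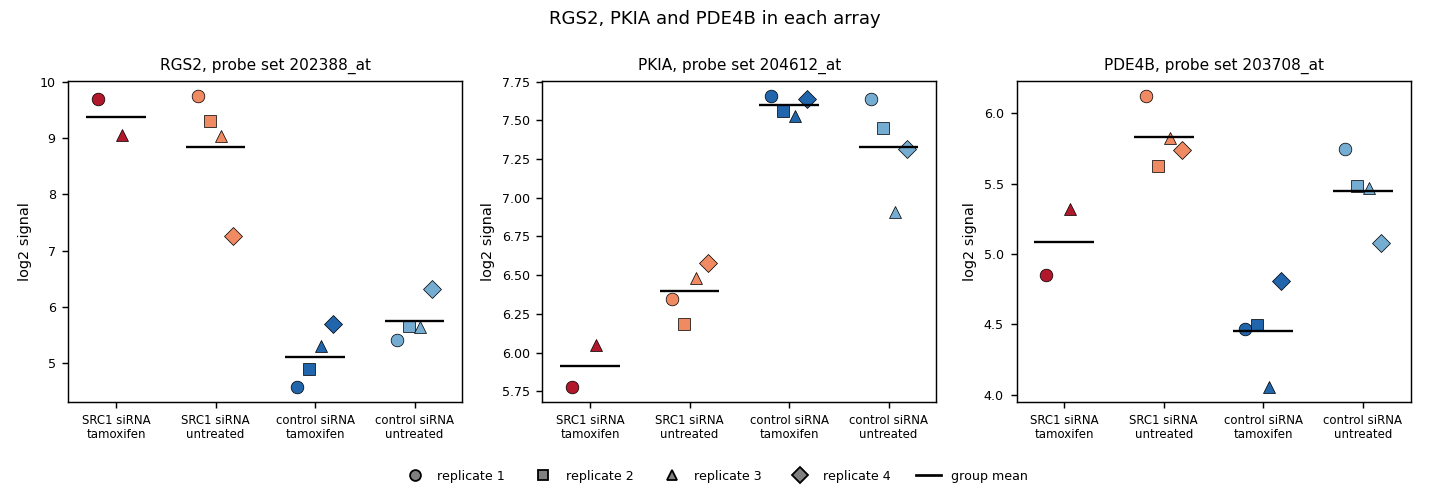
Deposited log2 signal (vertical axes) of RGS2, PKIA and PDE4B at their brightest probe sets in the 14 arrays, by group; points are arrays, symbols give the replicate number and lines are group means. RGS2 separates by siRNA with SRC1-siRNA untreated replicate 4 at 7.26, PKIA separates by siRNA in the other direction, and PDE4B is lower with tamoxifen under either siRNA.

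PKIA, a peptide that binds and blocks the catalytic subunit of protein kinase A, was lower with SRC1 siRNA at both of its probe sets. At 204612_at it was at 5.77 and 6.05 in the SRC1-siRNA tamoxifen arrays and at 6.35, 6.18, 6.48 and 6.58 in the SRC1-siRNA untreated arrays. It was at 7.66, 7.56, 7.53 and 7.64 in the control-siRNA tamoxifen arrays and at 7.64, 7.45, 6.91 and 7.31 in the control-siRNA untreated arrays. The arrays of the different siRNAs did not overlap, and both SRC1-siRNA tamoxifen arrays lay below all 4 SRC1-siRNA untreated ones. The knockdown change was -1.69 ± 0.16 with tamoxifen (68.9% lower) and -0.93 ± 0.13 untreated (47.5% lower). By replicate number it was -1.88 and -1.48 with tamoxifen, and -1.29, -1.27, -0.43 and -0.74 untreated. The other probe set, 226864_at, gave -1.70 with tamoxifen and -0.96 untreated. There SRC1-siRNA untreated replicate 1, at 5.40, lay below SRC1-siRNA tamoxifen replicate 1, at 5.44. The untreated change at this probe set ran from -2.11 to -0.31 by replicate number.

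PDE4B, a cyclic AMP phosphodiesterase, was lower after 2 hours of tamoxifen. At 203708_at it was at 4.85 and 5.32 in the SRC1-siRNA tamoxifen arrays and at 6.12, 5.62, 5.83 and 5.74 in the SRC1-siRNA untreated arrays. It was at 4.47, 4.49, 4.05 and 4.81 in the control-siRNA tamoxifen arrays and at 5.74, 5.48, 5.47 and 5.08 in the control-siRNA untreated arrays. Within each siRNA the tamoxifen arrays lay below all untreated ones, and the SRC1-siRNA tamoxifen arrays lay above all control-siRNA tamoxifen arrays. The tamoxifen change was -0.74 ± 0.21 in SRC1-siRNA cells (40.3% lower) and -0.99 ± 0.17 in control-siRNA cells (49.6% lower). By replicate number it was -1.28 and -0.51 in SRC1-siRNA cells, and -1.28, -0.99, -1.42 and -0.28 in control-siRNA cells. Without the replicate 4 arrays the change in control-siRNA cells was -1.23. The other PDE4B probe sets were dim, 211302_s_at between 1.95 and 2.66 and 215671_at between 1.92 and 2.29. Their tamoxifen changes were -0.36 and 0.02 in SRC1-siRNA cells, in that order, and -0.10 at each in control-siRNA cells. The mean over the PDE4B probe sets changed less than 203708_at, by -0.36 in SRC1-siRNA and -0.40 in control-siRNA cells.

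SRC1 siRNA was set against control siRNA to ask what depended on SRC-1. In untreated cells 8 of these 32 passed, 4 of them higher and 4 lower. Over the whole array 10.4% passed, with 4.99% higher and 5.36% lower. The 8 include the RGS2 probe set and both PKIA probe sets, whose values chose them. Of the 29 others 5 passed, 3 higher and 2 lower, in 4 genes, and the replicate block, under which 3.94% of all probe sets passed, kept 1 of these calls. With tamoxifen 9 of the 32 passed, 4 higher and 5 lower, again with those 3 included. The share over the whole array was 13.5%, with 5.76% higher and 7.7% lower. Of the 29 others 6 passed, 3 higher and 3 lower, in 4 genes, and the replicate block, under which 2.24% of all passed, kept 0. The 9 genes at their brightest probe sets had a median change of -0.01 with tamoxifen, beside -0.02 over all probe sets, and of 0.00 untreated, beside -0.00 over all.

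**Figure D2:**
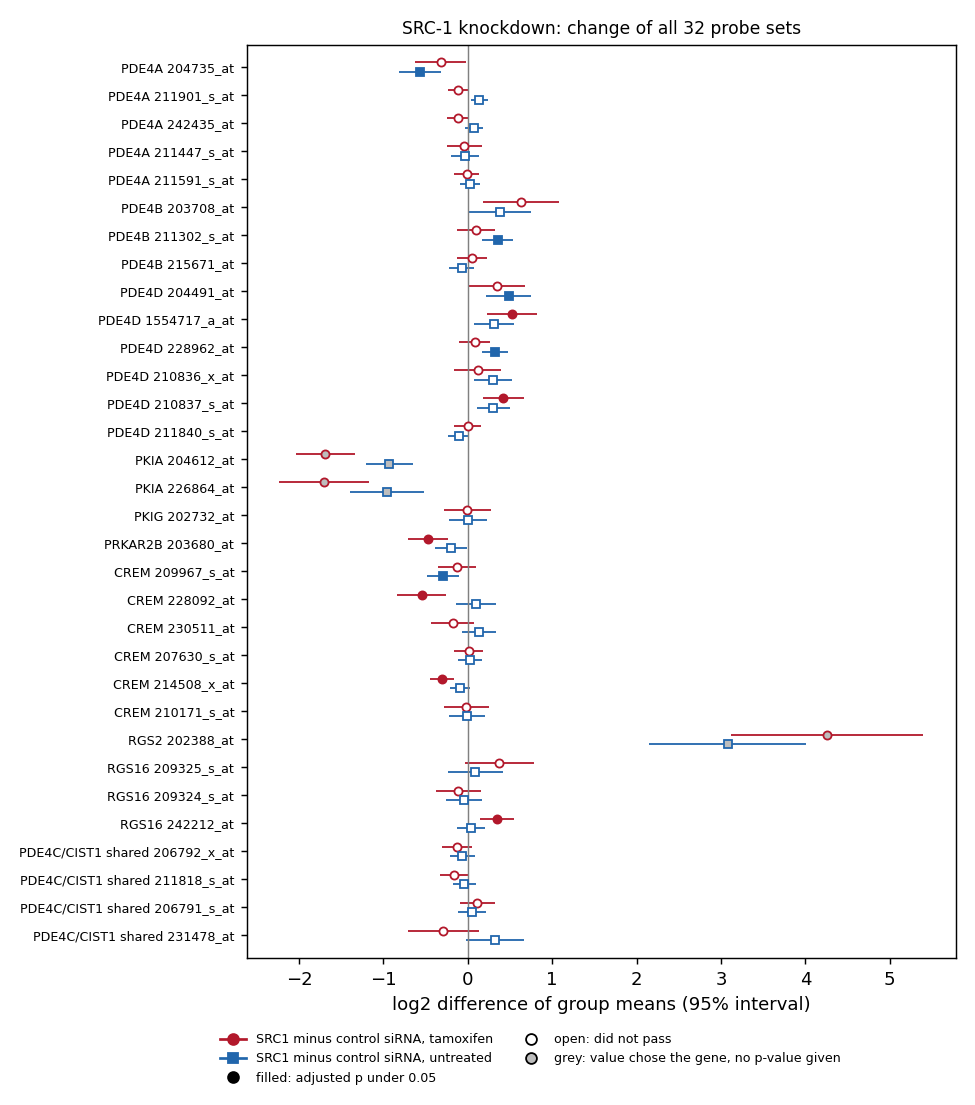
Knockdown change (log2 difference, SRC1 siRNA minus control siRNA, horizontal axis) of the 32 probe sets in tamoxifen-treated (circles) and untreated (squares) cells with 95% intervals; filled points passed, open ones did not, and grey ones chose the gene and are given without a p-value. RGS2 lies at 4.26 and 3.08 and PKIA at -1.69 and -0.93, while the other 29 probe sets lie between -0.57 and 0.63.

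Among the PDE4 enzymes, PDE4A fell with the knockdown in untreated cells. At 204735_at it was at 5.47, 5.49, 5.32 and 5.50 in SRC1-siRNA untreated arrays, against 5.72, 6.00, 6.33 and 6.00 in control-siRNA untreated arrays. The groups did not overlap. The change was -0.57 ± 0.11 (limma adjusted p = 0.0074, and 0.0301 with the replicate block), with -0.25, -0.52 and -0.50 in replicates 1, 2 and 4 and the largest fall in replicate 3. With tamoxifen PDE4A was at 5.78 and 5.55 in SRC1-siRNA arrays, against 5.83, 6.12, 6.14 and 5.85 in control-siRNA arrays, a change of -0.32 ± 0.14 that did not pass (limma adjusted p = 0.145). The call in untreated cells rests on this probe set: the other 4 PDE4A probe sets lay between 2.19 and 3.16, below the median signal, and the mean over all of them changed by -0.07.

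PDE4D, the phosphodiesterase with the most probe sets here, moved the other way in untreated cells. At 204491_at it was at 6.34, 6.40, 6.62 and 6.21 in SRC1-siRNA untreated arrays, against 5.87, 5.72, 5.99 and 6.06 in control-siRNA untreated arrays. The groups did not overlap, and the change was 0.48 ± 0.12 (limma adjusted p = 0.0256, but 0.0905 with the replicate block). The call was also lost without SRC1-siRNA untreated replicate 1, 2 or 3, or control-siRNA untreated replicate 1 or 2, each left out alone (limma adjusted p up to 0.0762). With tamoxifen it was at 6.62 and 6.01 in SRC1-siRNA arrays, against 5.89, 6.11, 5.92 and 5.95 in control-siRNA arrays, which overlap. That change was 0.35 ± 0.15 (limma adjusted p = 0.148), and it rested on 1 array: it was 0.04 without SRC1-siRNA tamoxifen replicate 1 (limma adjusted p = 0.913) and 0.65 without replicate 3 (limma adjusted p = 0.0233). The mean over the PDE4D probe sets passed in both, with 0.25 with tamoxifen (limma adjusted p = 0.0049) and 0.27 untreated (limma adjusted p = 0.0010). That mean gives the dim probe sets the same weight as 204491_at, and it was not fitted with the block or with arrays left out. Of the dimmer PDE4D probe sets, 228962_at rose in untreated cells by 0.32 (limma adjusted p = 0.0126, 0.0614 with the block). With tamoxifen 1554717_a_at rose by 0.53 (limma adjusted p = 0.0248, 0.120 with the block) and 210837_s_at by 0.42 (limma adjusted p = 0.0264, 0.133 with the block), calls that leaving out SRC1-siRNA tamoxifen replicate 1 (1554717_a_at, limma adjusted p = 0.322) or replicate 3 (210837_s_at, limma adjusted p = 0.263) ended. The 210837_s_at call was also lost without control-siRNA tamoxifen replicate 3 (limma adjusted p = 0.0585).

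PDE4B itself, at 203708_at, had a knockdown change of 0.63 ± 0.21 with tamoxifen (limma adjusted p = 0.0638) and of 0.38 ± 0.17 untreated (limma adjusted p = 0.182). With 1 array left out the change with tamoxifen ran from 0.39, without SRC1-siRNA tamoxifen replicate 3, to 0.87. It passed without control-siRNA tamoxifen replicate 4 and without all replicate 4 arrays (limma adjusted p down to 0.0311). Neither change passed with all arrays, and in untreated cells the arrays overlapped, from 5.62 to 6.12 in SRC1-siRNA cells and from 5.08 to 5.74 in control-siRNA cells. The dim probe set 211302_s_at passed in untreated cells (0.36 ± 0.08, limma adjusted p = 0.0178), but not with the block (adjusted p = 0.0757), nor without SRC1-siRNA untreated replicate 1 or 3 (adjusted p up to 0.0540). Of the 4 probe sets that PDE4C shares with CIST1, 1 was bright, 206792_x_at, between 7.77 and 8.11 in all 14 arrays. None of the 4 passed in any comparison.

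Among the proteins that restrain protein kinase A, PKIG, the broadly expressed relative of PKIA, passed in no comparison. At 202732_at it was at 9.07 and 8.76 in SRC1-siRNA tamoxifen arrays and at 8.77, 8.87, 9.05 and 9.02 in SRC1-siRNA untreated arrays. It was at 9.03, 8.83, 8.93 and 8.93 in control-siRNA tamoxifen arrays and at 8.80, 9.15, 9.06 and 8.69 in control-siRNA untreated arrays. All groups overlapped. The knockdown change was -0.01 with tamoxifen (95% interval -0.29 to 0.27) and 0.00 untreated (95% interval -0.23 to 0.23).

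PRKAR2B, the type II beta regulatory subunit, fell with the knockdown in tamoxifen-treated cells. At 203680_at it was at 10.31 and 10.28 in SRC1-siRNA tamoxifen arrays, against 10.79, 10.80, 10.77 and 10.70 in control-siRNA tamoxifen arrays. The groups did not overlap, and the change was -0.47 ± 0.11 (27.8% lower, limma adjusted p = 0.0143). The call was lost with the replicate block (adjusted p = 0.0886) and without either SRC1-siRNA tamoxifen array (adjusted p up to 0.0908). Untreated, it was at 10.25, 10.30, 10.55 and 10.56 in SRC1-siRNA arrays, against 10.82, 10.70, 10.46 and 10.47 in control-siRNA arrays, which overlap. That change was -0.20 ± 0.09 (limma adjusted p = 0.185), with -0.57 and -0.39 in replicates 1 and 2 and 0.09 and 0.08 in replicates 3 and 4.

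CREM, a relative of CREB whose inducible short products repress it, gave different answers at different probe sets. The brightest, 209967_s_at, was at 8.34, 8.15, 8.46 and 8.34 in SRC1-siRNA untreated arrays, against 8.51, 8.65, 8.72 and 8.56 in control-siRNA untreated arrays. The groups did not overlap, and the change was -0.29 ± 0.09 (limma adjusted p = 0.0468). That call was lost with the replicate block (adjusted p = 0.147), and leaving out any untreated array other than SRC1-siRNA replicate 3 also ended it, as did leaving out control-siRNA tamoxifen replicate 1, 3 or 4 (adjusted p up to 0.132). The mean over the CREM probe sets changed by -0.02. With tamoxifen the same probe set was at 8.55 and 8.19 in SRC1-siRNA arrays, against 8.47, 8.63, 8.46 and 8.43 in control-siRNA arrays (change -0.13 ± 0.11, limma adjusted p = 0.446). The second brightest, 228092_at, was at 7.68 and 7.51 in SRC1-siRNA tamoxifen arrays, against 8.15, 8.27, 8.11 and 8.02 in control-siRNA tamoxifen arrays. It fell by 0.54 ± 0.13 on the log2 scale (limma adjusted p = 0.0196), with no overlap. In untreated cells it was at 7.67, 7.56, 8.01 and 7.99 in SRC1-siRNA arrays, against 7.81, 7.90, 7.62 and 7.53 in control-siRNA arrays, which overlap. The probe set 214508_x_at also fell with tamoxifen, by 0.30 ± 0.07 (limma adjusted p = 0.0105). Both falls with tamoxifen were lost with the replicate block (adjusted p = 0.101 and 0.0922) and without either SRC1-siRNA tamoxifen array (adjusted p up to 0.132 and 0.0659). Of the 6 CREM probe sets, 4 did not pass in tamoxifen-treated cells and 5 did not in untreated cells.

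**Figure D3:**
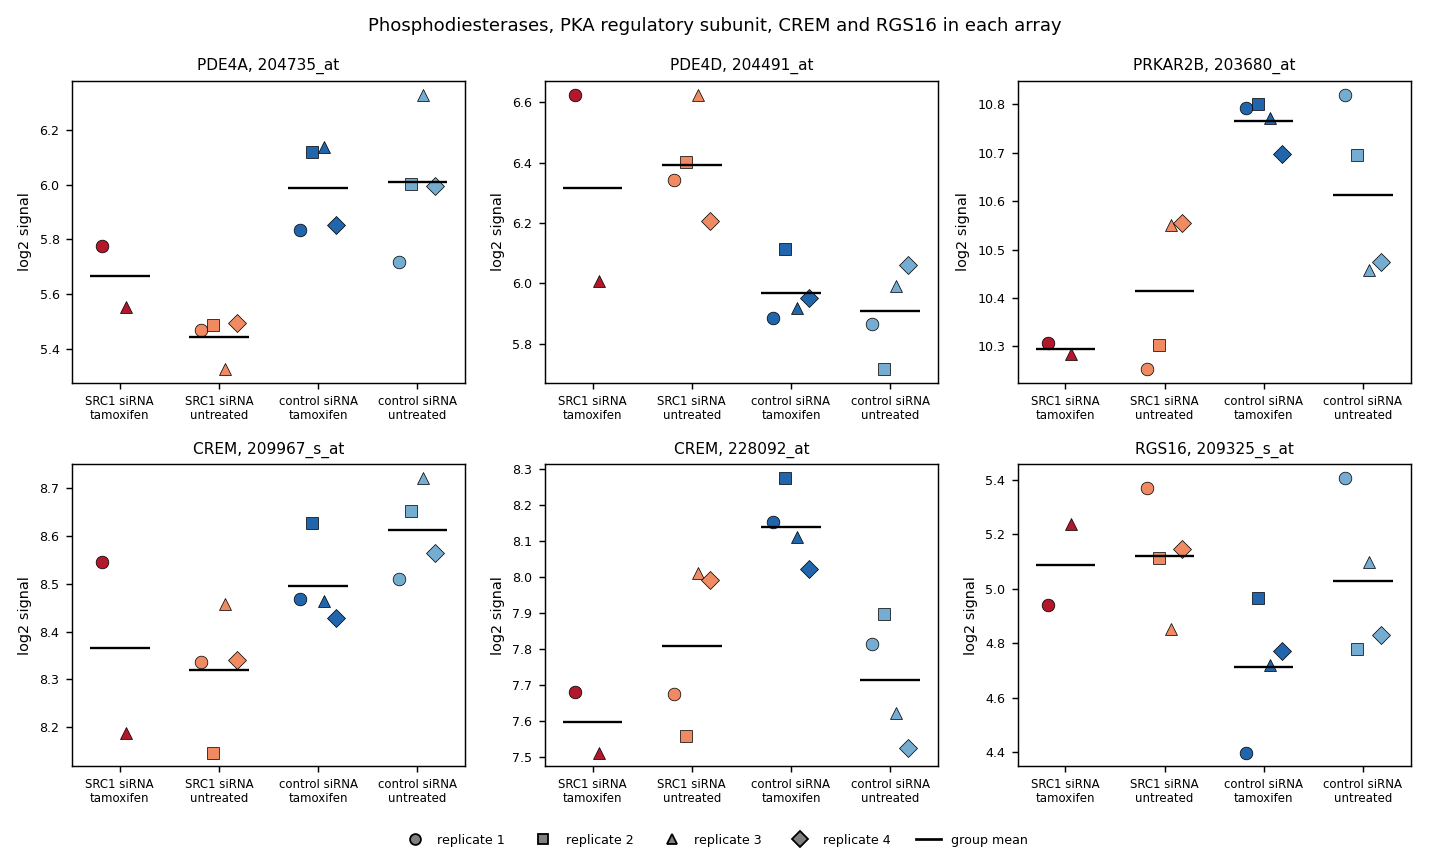
Deposited log2 signal (vertical axes, each with its own range) of PDE4A, PDE4D, PRKAR2B, CREM at its 2 brightest probe sets and RGS16, by group; points are arrays, symbols give the replicate number and lines are group means. PDE4A is lower and PDE4D higher in the 4 SRC1-siRNA untreated arrays than in the 4 control-siRNA untreated arrays, and PRKAR2B and CREM 228092_at are lower in both SRC1-siRNA tamoxifen arrays than in the 4 control-siRNA tamoxifen arrays.

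RGS16, an inactivator of Gi and Gq alpha subunits, did not pass at its brightest probe set. At 209325_s_at it was at 4.94 and 5.24 in SRC1-siRNA tamoxifen arrays and at 5.37, 5.12, 4.85 and 5.15 in SRC1-siRNA untreated arrays. It was at 4.40, 4.97, 4.72 and 4.77 in control-siRNA tamoxifen arrays and at 5.41, 4.78, 5.10 and 4.83 in control-siRNA untreated arrays. The SRC1-siRNA and control-siRNA arrays overlapped under both treatments. The knockdown change was 0.38 ± 0.19 with tamoxifen (limma adjusted p = 0.203) and 0.09 ± 0.15 untreated (limma adjusted p = 0.763). The probe set 242212_at, near the floor between 1.88 and 2.31, passed with tamoxifen (0.34, limma adjusted p = 0.0313), but not with the block (0.134) and not without either SRC1-siRNA tamoxifen array or control-siRNA tamoxifen replicate 1, 2 or 4 (adjusted p up to 0.143).

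The comparison of tamoxifen with untreated cells asked for the response to 2 hours of the drug. In control-siRNA cells 1 of the 32 probe sets passed, the PDE4B one that chose the gene, where 0.163% of all probe sets did. With the replicate block 0 of 32 passed, where 0.00183% of all did. In SRC1-siRNA cells 0 of 32 passed, where 1.51% of all did. RGS2 had a tamoxifen change of 0.54 ± 0.53 in SRC1-siRNA cells (limma adjusted p = 0.663), and of 0.01 without SRC1-siRNA untreated replicate 4. In control-siRNA cells its change was -0.64 ± 0.43 (limma adjusted p = 0.499). PKIA had a change of -0.49 ± 0.16 in SRC1-siRNA cells (limma adjusted p = 0.140) and of 0.27 ± 0.13 in control-siRNA cells (limma adjusted p = 0.339). CREM at 228092_at had a change of 0.43 ± 0.11 in control-siRNA cells (limma adjusted p = 0.107), with all 4 tamoxifen arrays above the 4 untreated ones. PKIG stayed within 0.01 of no change under either siRNA, with 95% intervals of -0.28 to 0.27 in SRC1-siRNA cells and -0.22 to 0.23 in control-siRNA cells.

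**Figure D4:**
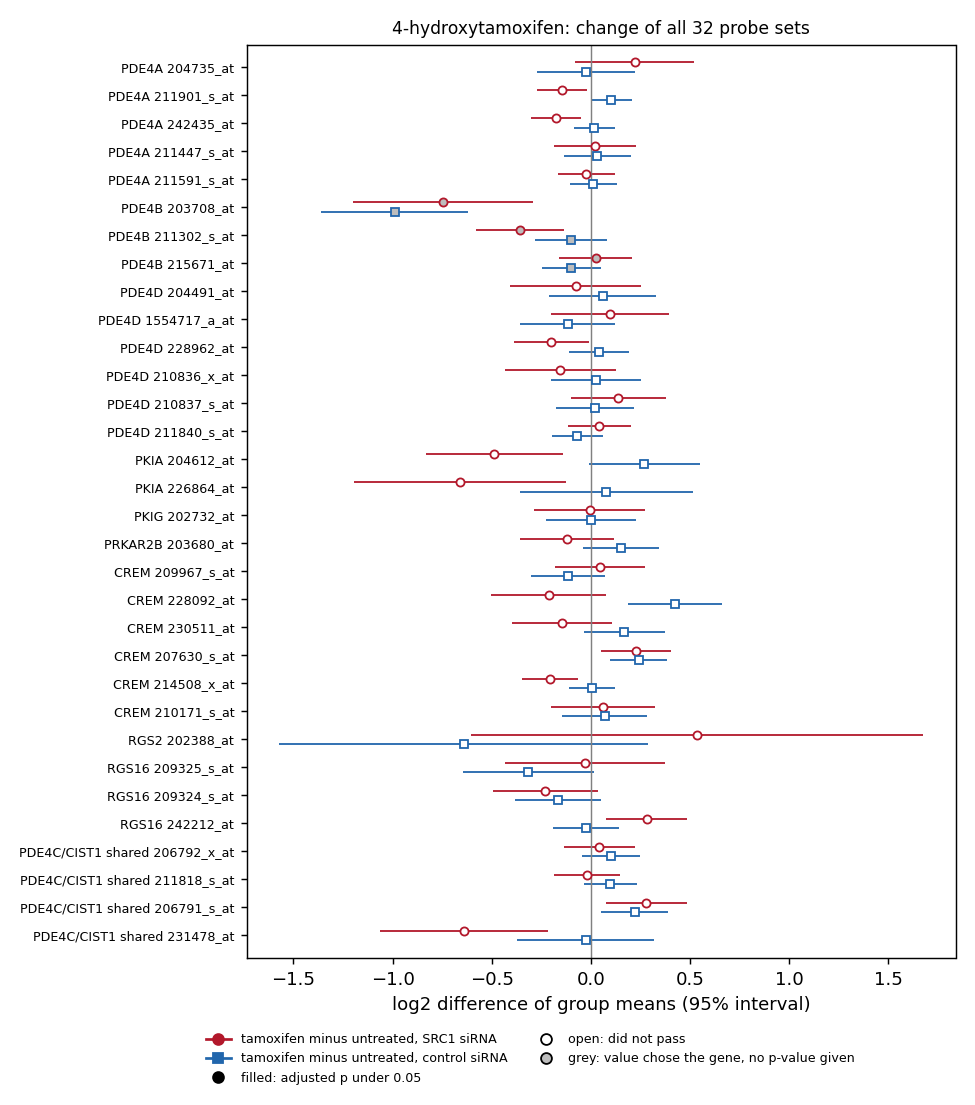
Tamoxifen change (log2 difference, tamoxifen minus untreated, horizontal axis) of the 32 probe sets in SRC1-siRNA (circles) and control-siRNA (squares) cells with 95% intervals; open points did not pass and grey ones chose the gene and are given without a p-value. PDE4B 203708_at lies at -0.74 in SRC1-siRNA and -0.99 in control-siRNA cells, and the probe sets of the other genes did not pass.

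Whether the tamoxifen response differed between the siRNAs was tested as an interaction, the change in SRC1-siRNA cells minus that in control-siRNA cells. Of the 32 probe sets 0 passed, where 0.28% of all did. For RGS2 and PKIA the interaction is also the difference between the knockdown changes that chose them. For PDE4B it is the difference between the tamoxifen changes that chose it. The interaction p-values of these genes are therefore not free of that choice. PKIA at 204612_at had the lowest value, -0.76 ± 0.21 (limma adjusted p = 0.106), and RGS2 the highest, 1.18 ± 0.68 (limma adjusted p = 0.394), which was 0.65 without SRC1-siRNA untreated replicate 4. CREM at 228092_at had -0.64 ± 0.17 (limma adjusted p = 0.105). PDE4B had 0.25 ± 0.27 (limma adjusted p = 0.676, 95% interval -0.34 to 0.83; 0.48 without SRC1-siRNA tamoxifen replicate 1 and 0.01 without replicate 3), so a difference of its tamoxifen fall between the siRNAs was not detectable with these arrays.

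The other genes of the pathway were read from lists of 112 genes, of which 104 were measured, each at its brightest probe set. With the knockdown 8 rose and 9 fell in tamoxifen-treated cells and 9 rose and 11 fell in untreated cells, and with the replicate block 3 and 11 of these calls were kept. Over the whole array 5.76% of probe sets rose and 7.7% fell in tamoxifen-treated cells, and 4.99% rose and 5.36% fell in untreated cells. These shares cover all probe sets, dim ones included, whereas the lists take the brightest probe set of each gene, so they are a low yardstick for the counts below. With all probe sets of a gene averaged, 3422 of 19775 genes passed in tamoxifen-treated cells and 2784 in untreated cells. When tamoxifen was compared with untreated cells under either siRNA, and in the interaction, 0 of 104 passed. Of all probe sets 1.51% passed for tamoxifen in SRC1-siRNA cells, 0.163% in control-siRNA cells and 0.28% in the interaction. The median knockdown change of the 104 was -0.02 with tamoxifen and 0.01 untreated, beside -0.02 and -0.00 over all probe sets.

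The cyclases, G protein alpha subunits, receptors and desensitising proteins include genes that raise cyclic AMP and genes that restrain it. None of them rose with the knockdown, where 5.76% of all probe sets rose with tamoxifen and 4.99% untreated. At such shares few rises would be looked for in lists of this size. Of 9 adenylyl cyclases 1 fell in tamoxifen-treated cells and 2 fell in untreated cells. ADCY1, a calmodulin-stimulated cyclase, was at 7.44 in SRC1-siRNA tamoxifen cells and 8.33 in control-siRNA tamoxifen cells (change -0.89 ± 0.15, limma adjusted p = 0.0032). Untreated, it was at 7.58 in SRC1-siRNA cells and 8.22 in control-siRNA cells (change -0.64 ± 0.12, limma adjusted p = 0.0056). ADCY4 fell by 0.38 ± 0.08 in untreated cells (limma adjusted p = 0.0072). Of 13 G protein alpha subunits 1 fell in tamoxifen-treated cells, GNAL, the olfactory stimulatory subunit (-0.77, limma adjusted p = 0.0211), and 2 fell in untreated cells. The GNAL call was lost with the block (adjusted p = 0.108), with only the arrays compared (0.0623) and without SRC1-siRNA tamoxifen replicate 1 (0.269), where the change was -0.45. Those in untreated cells were the inhibitory subunits GNAZ (-0.54, limma adjusted p = 0.0041) and GNAI2 (-0.28, limma adjusted p = 0.0060). Of 13 receptors and desensitising proteins, the prostaglandin receptor PTGER2 (-0.44, dim, limma adjusted p = 0.0022, 0.0384 with the block) and the receptor kinase GRK3 (-0.41, limma adjusted p = 0.0318) fell in tamoxifen-treated cells, and the adenosine receptor ADORA2B fell in untreated cells (-0.39, limma adjusted p = 0.0115). The GRK3 call was lost with the block (adjusted p = 0.126), with only the arrays compared (0.0788) and without either SRC1-siRNA tamoxifen array or control-siRNA tamoxifen replicate 2 or 3 (adjusted p up to 0.242). With median centring on top of the block the GNAI2 and ADORA2B calls were lost as well (adjusted p = 0.0502 and 0.0512).

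Among 11 other phosphodiesterases that act on cyclic AMP, 2 fell in each comparison and none rose. PDE3B, an enzyme of the insulin response in fat and liver, was at 5.05 in SRC1-siRNA tamoxifen cells and 6.45 in control-siRNA tamoxifen cells (change -1.40 ± 0.29, limma adjusted p = 0.0086). Untreated, it was at 5.55 in SRC1-siRNA cells and 6.49 in control-siRNA cells (change -0.94 ± 0.24, limma adjusted p = 0.0237). Neither PDE3B call was kept by the block (adjusted p = 0.0612 with tamoxifen and 0.0826 untreated), and the untreated one was lost without replicate 1 or 2 of either siRNA (adjusted p up to 0.0725). PDE7A fell in untreated cells (-0.30, limma adjusted p = 0.0104, 0.0611 with the block), and the dim PDE3A fell in tamoxifen-treated cells (-0.17, limma adjusted p = 0.0496). The PDE3A call was lost under 22 of 23 alternatives, among them each array left out and the block (adjusted p = 0.234).

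Among 18 protein kinase A, Epac and anchoring genes, 1 rose and 1 fell in tamoxifen-treated cells, and 2 rose and 2 fell in untreated cells. PKIB, the PKI gene besides PKIA and PKIG, rose in untreated cells, at 10.13 in SRC1-siRNA cells and 9.68 in control-siRNA cells (change 0.46 ± 0.06, limma adjusted p = 0.0006, 0.0098 with the block). AKAP5, which anchors protein kinase A at the membrane, rose by 0.74 ± 0.20 with tamoxifen (limma adjusted p = 0.0310, 0.144 with the block) and by 0.92 ± 0.17 untreated (limma adjusted p = 0.0041, 0.0243 with the block). The AKAP5 call with tamoxifen was also lost with only the arrays compared (adjusted p = 0.0745) and without either SRC1-siRNA tamoxifen array or control-siRNA tamoxifen replicate 2 (adjusted p up to 0.203). The regulatory subunit PRKAR2A fell by 0.37 ± 0.07 with tamoxifen (limma adjusted p = 0.0043) and by 0.25 ± 0.05 untreated (limma adjusted p = 0.0120), and the catalytic subunit PRKACA fell by 0.25 ± 0.05 untreated (limma adjusted p = 0.0074). The block kept neither the PRKAR2A calls (adjusted p = 0.0593 with tamoxifen and 0.0772 untreated) nor that of PRKACA (0.0583), whose call was also lost with its probe sets averaged (-0.13, adjusted p = 0.287).

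Of 17 other RGS genes, 1 rose and 1 fell in each comparison. RGS12, a large scaffold with an RGS domain, fell by 0.69 ± 0.12 with tamoxifen (limma adjusted p = 0.0034) and by 0.62 ± 0.10 untreated (limma adjusted p = 0.0019). The mean over its probe sets changed less, by -0.14 with tamoxifen and -0.15 untreated (limma adjusted p = 0.0444 and 0.0157). The RGS gene that rose was RGS9, at a dim probe set (0.49 with tamoxifen, 0.32 untreated), and the block ended both calls (adjusted p = 0.0925 with tamoxifen and 0.129 untreated). The passing changes of these relatives stayed under 1 in size. They are not set against RGS2, whose own knockdown values chose it.

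Genes that CREB induces were the list with the most calls upward. Of 16 measured, 5 rose and 1 fell in either comparison, where 5.76% of all probe sets, dim ones included, rose with tamoxifen and 4.99% untreated. The list had a median change of 0.28 with tamoxifen and 0.38 untreated, beside -0.02 and -0.00 over all probe sets. ATF3, a stress-induced transcription factor, had a change of 1.65 ± 0.42 with tamoxifen (limma adjusted p = 0.0224) and 1.55 ± 0.35 untreated (limma adjusted p = 0.0128). NR4A3, an orphan nuclear receptor, had 1.20 ± 0.31 with tamoxifen (limma adjusted p = 0.0223) and 1.36 ± 0.25 untreated (limma adjusted p = 0.0047). CGA, the common alpha chain of glycoprotein hormones, had 0.87 ± 0.21 with tamoxifen (limma adjusted p = 0.0169) and 1.09 ± 0.17 untreated (limma adjusted p = 0.0018). IRS2 rose by 0.57 with tamoxifen (limma adjusted p = 0.0196, 0.101 with the block) and PPARGC1A fell by 0.64 untreated (limma adjusted p = 0.0137, 0.0576 with the block). The fall in tamoxifen-treated cells was that of BDNF, near the floor (-0.28, limma adjusted p = 0.0041, 0.0683 with the block). Several of these genes also answer to other signals, among them stress in the case of ATF3, and the list does not separate the routes. The untreated calls of ATF3, NR4A3 and CGA were kept by the block (adjusted p = 0.0465, 0.0250 and 0.0126), and none of the tamoxifen calls of the list was (adjusted p = 0.106 for ATF3, 0.109 for NR4A3 and 0.101 for CGA). With all probe sets of a gene averaged, the untreated changes were 0.82 for ATF3, 0.47 for NR4A3, 0.61 for CGA and -0.28 for PPARGC1A, and all 4 passed. Of 7 CREB factors and coactivators, CRTC3 rose at its brightest probe set (0.43 with tamoxifen, limma adjusted p = 0.0057, and 0.24 untreated, limma adjusted p = 0.0395), but the mean over its probe sets changed by 0.24 with tamoxifen (adjusted p = 0.101) and by -0.06 untreated. The block ended both calls (adjusted p = 0.0561 with tamoxifen and 0.137 untreated), and so did leaving out SRC1-siRNA tamoxifen replicate 1 (0.0561) for the first, or any untreated array other than SRC1-siRNA replicate 4 (up to 0.111) and control-siRNA tamoxifen replicate 2 or 3 (up to 0.0528) for the second.

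**Figure D5:**
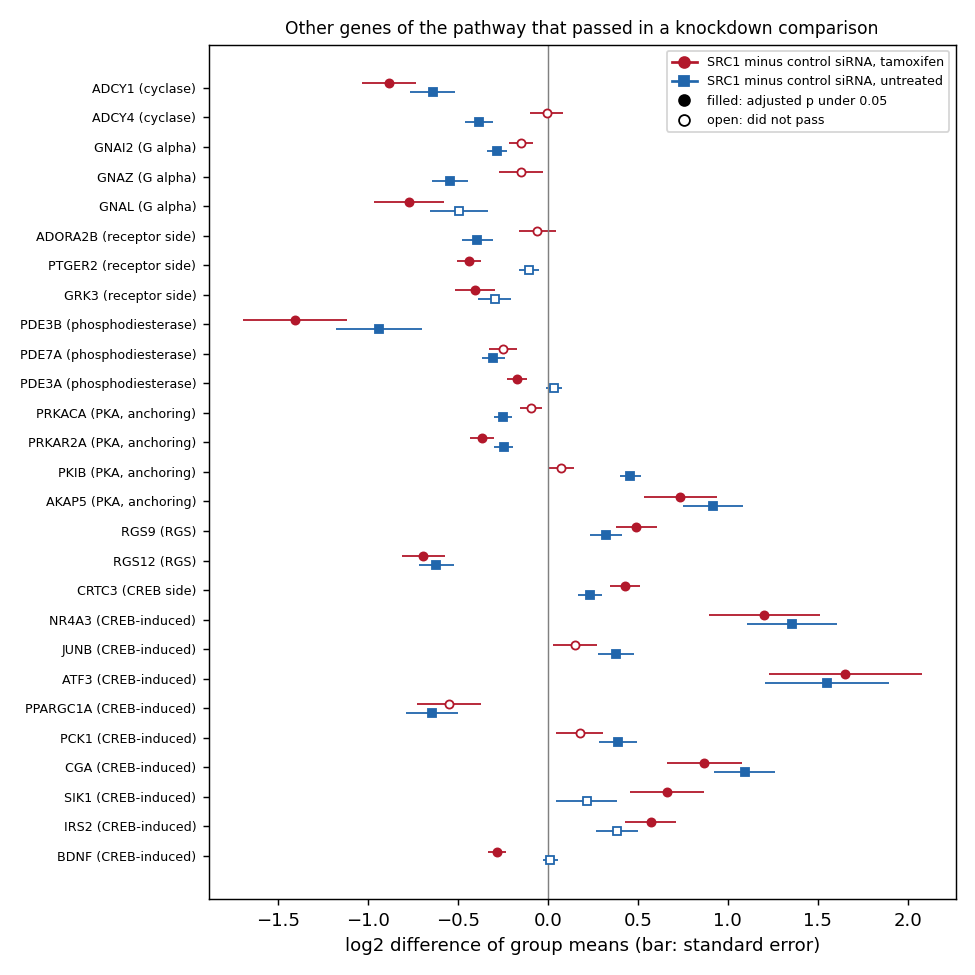
Knockdown change (log2 difference, SRC1 siRNA minus control siRNA, horizontal axis, bars are standard errors) of the 27 other pathway genes that passed in at least 1 knockdown comparison, in tamoxifen-treated (circles) and untreated (squares) cells; filled points passed and open ones did not. The cyclases, G protein alpha subunits, receptors and phosphodiesterases shown lie below 0 where they passed, and ATF3 has the highest values, 1.65 and 1.55.

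The calls in tamoxifen-treated cells rested on few arrays. Most of the 15 named pathway calls there were lost without SRC1-siRNA tamoxifen replicate 1, and fewer without replicate 3. Either omission leaves 1 array in that group. The same held for the calls over the whole array, so these losses are not particular to the pathway genes. GNAZ, ADCY1, ADCY4, RGS12, PKIB, AKAP5, NR4A3, ATF3 and CGA kept their calls in untreated cells when any 1 array was left out and with the block. So did GNAI2 and ADORA2B, whose calls were lost only when median centring was added to the block. With all probe sets of a gene averaged, the changes with tamoxifen were smaller by more than 1.5 times for ADCY1 (-0.35), GNAL (-0.43), PDE3B (-0.93), NR4A3 (0.51) and CGA (0.38), and those untreated for ADCY1 (-0.21) and PDE3B (-0.55), and these calls were kept.

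The genes whose brightest probe set ran most like each of the 3 chosen genes over the 14 arrays were taken from 12263 genes with a signal above the median. For RGS2 they were SP6 (Pearson r = 0.995), ST6GAL1 (0.992), C3 (0.992), B4GALT5 (0.992) and EPAS1 (0.991). Their knockdown changes were between 1.67 and 3.59 with tamoxifen and between 1.02 and 3.11 untreated. For PKIA they were SLC39A10 (0.974), NAAA (0.969), FGF12 (0.968), PRPS1 (0.965) and MYBL1 (0.962), with knockdown changes of smaller size, from -0.72 to -0.35 with tamoxifen and from -0.43 to -0.19 untreated. For PDE4B they were SIK2 (0.907), PTPN9 (0.899), TIMP2 (0.897), SUSD1 (0.896) and STAU1 (0.890), whose tamoxifen changes ran from -0.23 to -0.04 in SRC1-siRNA cells and from -0.38 to -0.13 in control-siRNA cells. These correlations describe 14 arrays that share the division by siRNA and by drug, and carry no test.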

How the data were processed

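RNA of LY2 cells was extracted, amplified with a NuGEN kit and measured on 14 HG-U133 Plus 2.0 arrays from Affymetrix, as the labels' protocols state. The authors deposited log2 values, 1 per probe set and array, whose base was inferred from their range. The submitters' processing notes name R 2.9.2, and how background, normalization and summary were handled is not given in the sources used here. Low signals form a floor at which differences are compressed. Of 54675 probe sets 62 array controls were left out. Samples were grouped from the labels. Group means were fitted with limma 3.58.1 (R 4.3.3, lmFit and eBayes), with Benjamini-Hochberg adjustment over 54613 probe sets, two-sided, and the code was tested on simulated data. The genes, lists and tests were chosen with earlier results of these data known. Named genes are the 10 chosen, NCOA1, passing pathway genes (in each list and comparison at most 4, by smallest p) and the 5 most alike. JUNB, PCK1 and SIK1, drawn among passing genes, and the values of ATF3 with tamoxifen lie outside this rule and were included after their values were seen. Alternatives were filters, normalizations, the replicate block, the arrays fitted, variance settings, array weights, left-out arrays and averaging the probe sets of a gene.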

Additional observations from a re-analysis of the deposited data

Results flagged for a closer look

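Of 54 groups of 4 arrays looked at among the probe sets of the genes studied, 2 held an array whose gap to its neighbour was large for the range of its group, and chance alone marks about 1 group in 20. PDE4A at 204735_at was at 5.32 in SRC1-siRNA untreated replicate 3, where the nearest array was at 5.47 and the highest at 5.50. PKIA at 226864_at was at 7.51 in control-siRNA untreated replicate 1, where the nearest array was at 6.88 and the lowest at 6.79.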

How the results depend on the processing

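With group means removed, arrays sharing a replicate number were not alike. Their 18 correlations ran from -0.585 to -0.0421 (median -0.334), against a median of 0.139 over 54 pairs with other numbers. The main fit did not pair the samples by number. Whether the numbers pair them cannot be read from these correlations, since removing a mean per number before deposit would also make them negative. That was not tested. The F statistic of the number had a median of 0.0428, where the F distribution has 0.871, and 77.8% of probe sets lay in its lowest 5%. P-values without the number as a term may therefore be too small. With the replicate block, passing probe sets of the 32 numbered 3 instead of 9 for the knockdown with tamoxifen, 4 instead of 8 untreated, and 0 instead of 1 for tamoxifen in control-siRNA cells, and median centring on top gave the same 3, 4 and 0. Over the whole array 2.24%, 3.94% and 0.00183% passed with the block. The knockdown counts with and without the block include the RGS2 probe set and both PKIA probe sets, whose values chose them, and the 1 for tamoxifen is that of PDE4B. With the probe sets of each gene averaged, 4 and 3 of 9 genes passed for the knockdown with tamoxifen and untreated, and 0 for tamoxifen in control-siRNA cells. Of all 19775 genes 3422, 2784 and 48 passed in that order, and RGS2 and PKIA are among the 4 and the 3. The count for tamoxifen in control-siRNA cells was also 0 with median centring alone and with only the arrays compared. Leaving out 1 array gave 4 to 9, 5 to 10 and 0 to 1. Without SRC1-siRNA untreated replicate 1 the count was 5 untreated, where 3626 of all probe sets passed instead of 5653. With tamoxifen the count was lowest without SRC1-siRNA tamoxifen replicate 1 or 3, each of which leaves 1 array in that group. Fewer of all probe sets passed there too, so these drops are not particular to the 32. Tamoxifen in SRC1-siRNA cells and the interaction gave 0 under every alternative run, and the fit of only the arrays compared, which for the interaction is the fit of all, was not run there. NCOA1 changed by -1.50 to -1.15 with tamoxifen and by -1.40 to -1.16 untreated when 1 array was left out (exact permutation p = 0.0571 untreated, the smallest that design allows). Among single genes, CRTC3 (0.24 in untreated cells) turned to -0.0627 when its probe sets were averaged, and of the other values 1832 kept direction and call, 168 lost the call, 4 gained it and 55 moved. The cause of these differences was not tested.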
